A study of Saccharomyces cerevisiae with 24 samples.

Results

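The comparison set Prp40 in yeast cells given 6-azauracil against Prp40 in untreated cells, gene by gene. Both are ChIP-chip profiles, in which DNA bound by a protein is recovered with an antibody and hybridised to an array of spotted open reading frames. Of 24 columns of values in the series 2 were compared, and of 5674 nuclear genes with a usable probe 5672 had a change, defined as the 6-azauracil log2 ratio minus the control log2 ratio. The other 2 genes were at the limit of the scale in the control, where a ratio stops at 100-fold. In the 6-azauracil column the cells carried Prp40 with a C-terminal 3myc tag at its own locus, grew in synthetic medium without uracil (SC-URA) to an optical density of 0.6 and received 80 µg/ml 6-azauracil for 30 minutes before fixation. The control cells carried the same tag and grew in the same medium to the same density, with no drug named in the labels. The 6-azauracil column combined 3 biological replicates and the control column 4, each already merged into 1 value per gene. The files hold no value of a single replicate, and the differences below carry neither an error nor a p-value: they describe these 2 columns, with a precision set by few arrays.

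Prp40 is a protein of the U1 snRNP, the particle that meets the 5′ splice site of a new transcript first, often while RNA polymerase II is still on the gene. 6-Azauracil lowers the cell's GTP and UTP and is used as an inhibitor of transcription elongation. Budding yeast has few genes with an intron, and many of them code for ribosomal proteins and are transcribed strongly, so ribosomal protein (RP) genes carry much of the splicing in growing cells.

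The deposited values are log2 ratios, most likely immunoprecipitate over whole-cell extract, since strongly transcribed genes were positive. The direction is not settled for the 6-azauracil column, because over all probes it correlated with the Mud2 profile of the series at a Pearson coefficient of -0.34, although the labels give all samples the same dye scheme. Over genes its Spearman coefficient was 0.33 with the control and 0.27 with RNA polymerase II, but -0.36 with Prp2. With the same Mud2 profile it was -0.41, but with a Mud2 column without RNase 0.28, and with one after RNase 0.06. The control itself had 0.09 with the first of these Mud2 columns. Glycolytic genes had a median of 1.34 in the 6-azauracil column as deposited. Their medians in the other columns of the series lay between -0.03 and 1.96. As the direction is not settled, changes with the sign of the 6-azauracil column turned are given too. Over genes the 6-azauracil column had a median of 0.01 and a robust SD of 0.29, and the control column had -0.03 and 0.19. The median change over all genes was 0.04, with a robust SD of 0.30. A change of 1 or more, 2-fold, was found for 49 genes (0.864% of 5672), and a change of -1 or less for 39 genes (0.688%). At 1.5-fold, 0.58 on the log2 scale, 236 genes were higher (4.16%) and 234 lower (4.13%). Genes below 0 made up 45.4% of all genes and genes above 0 made up 54.6%, the background for the counts of all lists below.

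RP genes with an intron stood near the top of the control profile and near the middle of the 6-azauracil profile. Over 91 such genes Prp40 ranged between -0.51 and 0.42 with 6-azauracil, around a median of -0.04, and between -0.88 and 1.39 in the control, around a median of 0.50. The upper quartile with 6-azauracil, 0.07, lay below the lower quartile of the control, 0.36, so the bulk of the genes did not overlap although the extremes did. The median change was -0.56, or -0.54 after both columns were scaled to equal spread and -0.60 after quantile normalisation. Of the 91 genes 88 were below 0, which is 96.7% against the 45.4% of all genes, and 44 were lower by 0.58 or more, which is 48.4% against 4.13%. A 2-fold lower value was found for 6 of them, against 0.688% of all genes. As a rank within its column, the median RP intron gene stood at percentile 42.7 of all genes with 6-azauracil and at percentile 95.8 in the control.

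**Figure D1:**
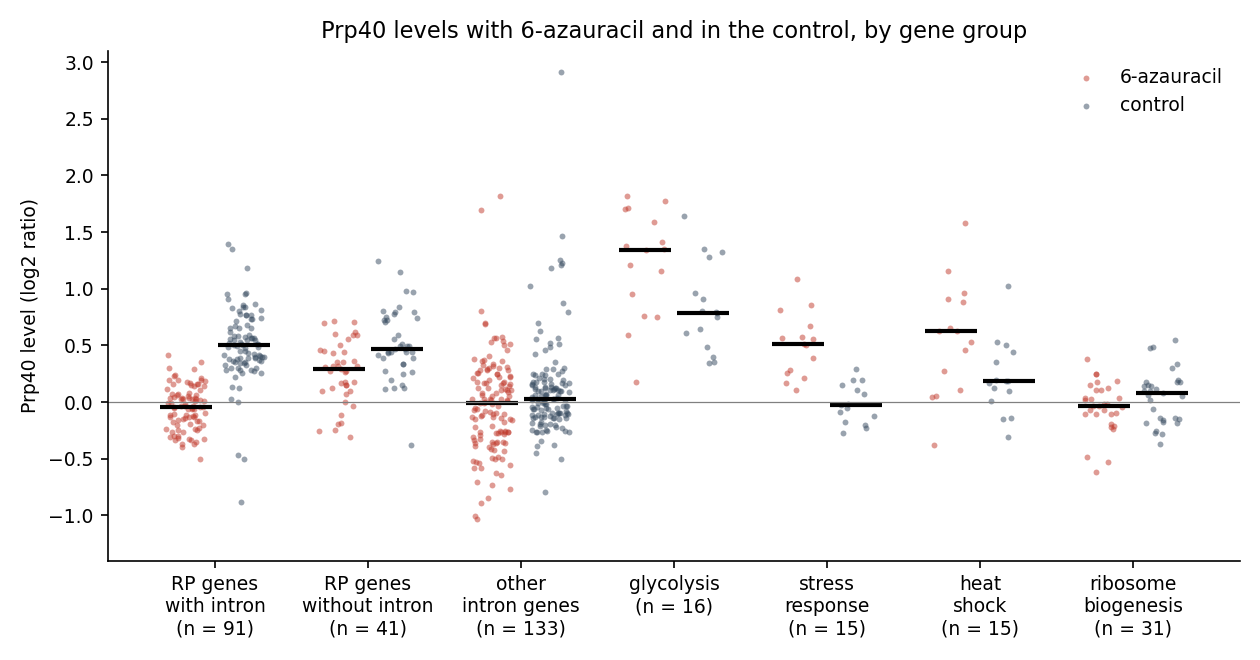
Prp40 level of each gene (log2 ratio, y axis) in 7 gene groups, with 6-azauracil in red on the left and the control in dark blue on the right of each group, and black bars at the medians. RP genes with an intron had medians of -0.04 with 6-azauracil and 0.50 in the control, whereas glycolytic genes had 1.34 and 0.79.

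Both ribosomal subunits took part. The 39 intron genes for small subunit proteins had a median of -0.04 with 6-azauracil and 0.55 in the control, with a median change of -0.59, and 37 were below 0. The 52 for large subunit proteins had medians of -0.04 and 0.49, a median change of -0.55, and 51 below 0. RPS13, a small subunit protein gene and the highest RP gene of the separate Prp40-9myc profile, gave the lowest change of all RP genes, with 0.14 in 6-azauracil and 1.35 in the control, a change of -1.21. RPS27B followed with -0.34 in 6-azauracil and 0.83 in the control, a change of -1.17. RPS7A stood at -0.51 with the drug, the lowest level of the group, against 0.55 in the control. RPL28, with 0.16 against 1.18, was also lower by more than 2-fold. These 4 genes ranked at percentile 69.4 or lower of their column with 6-azauracil and at percentile 96.6 or higher in the control.

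A run of 3 neighbouring RP genes showed nearly equal changes. RPS14B and RPL39, both with an intron, lie on either side of RPS22A, which has none, and the changes were -1.03 for RPS14B, -1.01 for RPS22A and -1.08 for RPL39. Their levels with 6-azauracil were 0.36, -0.30 and -0.35 in that order, against 1.39, 0.71 and 0.74 in the control. Neighbours this close can share sheared DNA fragments, so the 3 values are not independent. The genes that flank the run differed, with -0.48 at SOP4 and 0.08 at SWE1, the gene of the Wee1-type kinase.

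Only 3 RP intron genes were above 0. RPS19A had 0.04 with 6-azauracil and -0.88 in the control, a change of 0.92. RPL33A had -0.06 and -0.51, a change of 0.44, and RPS30A had -0.39 and -0.47, a change of 0.07. Their control values were below 0, which held for 4 of the 91 genes. RPL42B, the fourth, had -0.25 with the drug and 0.00 in the control when rounded. The partner copies of the 3 genes gave changes of -0.45 for RPS19B, -0.77 for RPL33B and -0.78 for RPS30B.

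Most yeast RP genes exist as a pair of near-identical copies, A and B, and array probes may not separate them. In 39 pairs with an intron in both copies the median size of the difference between the changes of the copies was 0.21, and both copies were below 0 in 36 pairs. The exceptions were the pairs of RPS19, RPL33 and RPS30. A large difference without a change of sign was found for RPS27, with -0.30 for RPS27A and -1.17 for RPS27B. Across the 39 pairs the changes of the copies had no shared order, with a Spearman coefficient of -0.01, so the order of single genes within the group was not repeated between copies. In the 4 pairs in which a single copy carries an intron, both copies were below 0. In one of them RPS22B, with an intron, had -0.99 and RPS22A, without one, had -1.01.

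**Figure D2:**
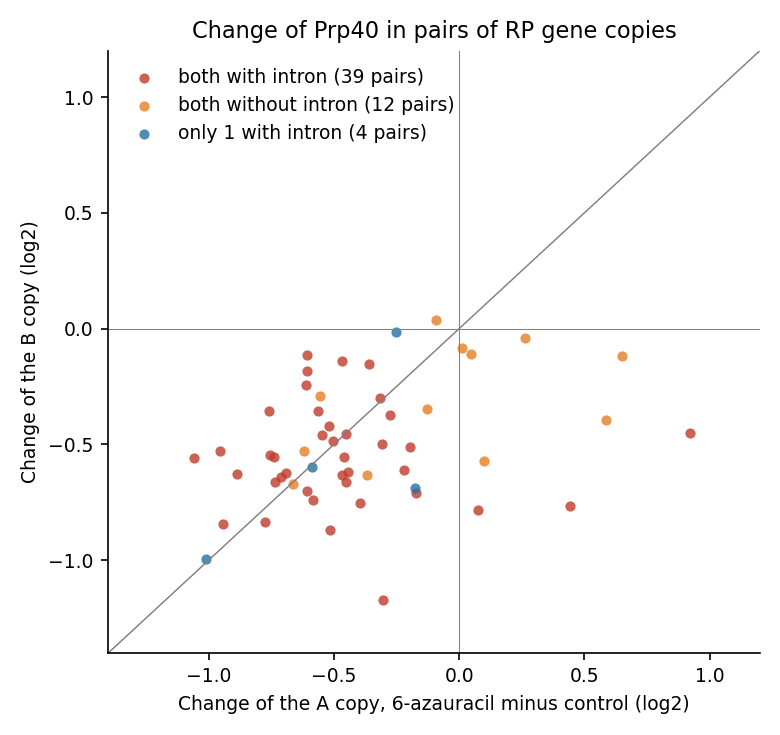
Change of Prp40 (6-azauracil minus control, log2) in the B copy (y axis) against the A copy (x axis) of 55 pairs of RP genes, coloured by the copies that carry an intron, with the line of equality. In 36 of 39 pairs with an intron in both copies, both changes lie below 0.

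RP genes without an intron were lower too, by less. Over 41 such genes Prp40 had a median of 0.29 with 6-azauracil and 0.47 in the control, a median change of -0.29, with 32 below 0 (78.0%) and 9 lower by 0.58 or more (22.0%, against 4.13% of all genes). In the control the groups with and without an intron had nearly equal medians, 0.50 and 0.47, and 67 of 91 and 30 of 41 genes passed the 95th percentile of intronless genes. With 6-azauracil 0 of 91 and 8 of 41 passed the percentile of that column. The percentile is taken within each column and lay at 0.55 with 6-azauracil and 0.36 in the control. The upper quartile of RP genes without an intron was 0.45 with 6-azauracil, between these 2 cuts. RPL3, for a large subunit protein, kept 0.60 with the drug against 1.25 in the control. RPP0, the base of the ribosomal stalk, had 0.55 against 1.15. The highest changes of the group were 0.65 for RPS28A, with 0.27 against -0.38, and 0.59 for the stalk gene RPP2A, with 0.70 against 0.11. RPL24A and RPL24B, both without an intron, were alike at -0.66 and -0.67.

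The share of RP genes with high Prp40 can be set beside that of the other 6 Prp40 columns, of which spt5_194, a strain with a mutant allele of the elongation factor gene SPT5, has the same tag and medium. That column shares its control with 6-azauracil, so the values are only given side by side. RP genes with an intron had a median of -0.04 with 6-azauracil, 0.56 in spt5_194 and 0.50 in the control. Above the 95th percentile of intronless genes stood 0 of 91 with 6-azauracil, 83 in spt5_194 and 67 in the control. In 4 columns of Prp40 with a 9myc tag the count was 54 after RNase, 88 without RNase, 87 without the cap-binding complex and 89 in the profile of unperturbed cells. The 9myc columns differ from the 3myc control in the tag and in the medium, which was rich, and the RNase pair also in a shorter fixation. In the 9myc profile RP intron genes had a median of 2.14 and RP genes without an intron 0.73, a gap that the 3myc control did not show. Among all 24 columns of the series the 6-azauracil column had the lowest median rank of RP intron genes, percentile 42.7, and Mud2 after RNase came next with 52.2. With the sign of the 6-azauracil column turned the rank would be percentile 57.3, above Mud2 after RNase and above Sub2, at 55.0.

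**Figure D3:**
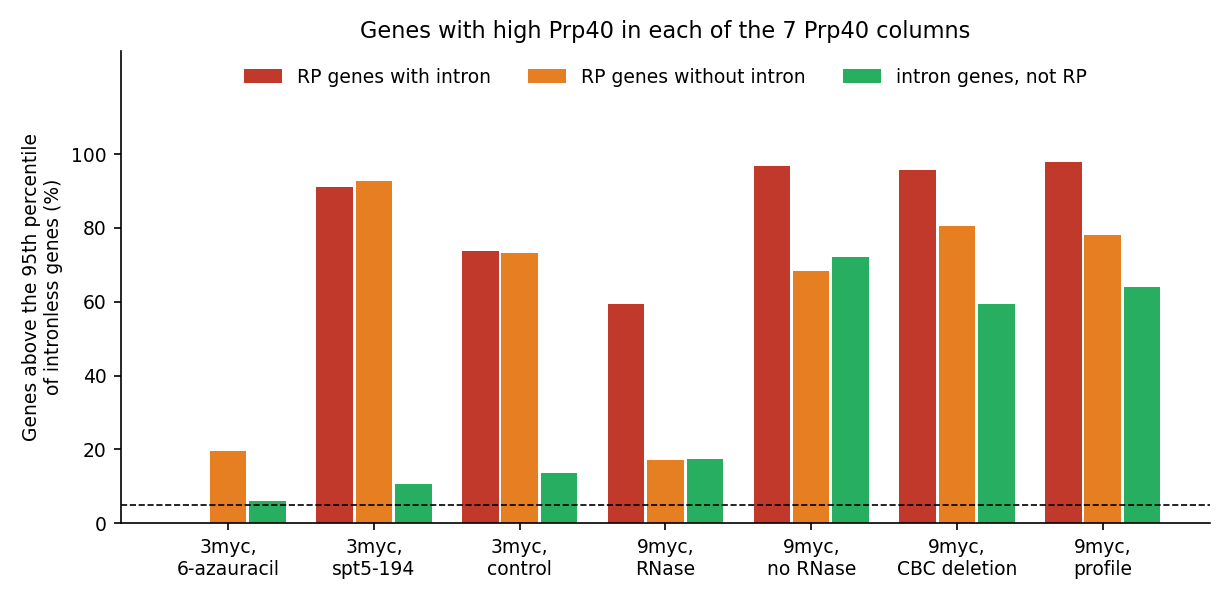
Share of genes (%, y axis) above the 95th percentile of intronless genes in 7 Prp40 columns, for RP genes with an intron (red), RP genes without one (orange) and other intron genes (green), with a dashed line at 5%. The red bar is 0 with 6-azauracil and 73.6% in the control.

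Intron genes outside the ribosome had medians near 0 in both columns. Over 133 genes the median was -0.01 with 6-azauracil and 0.03 in the control, with a median change of -0.08, 78 below 0 (58.6%, against 45.4% of all genes) and 13 lower by 0.58 or more (9.77%, against 4.13%). Above the 95th percentile of intronless genes stood 8 with 6-azauracil and 18 in the control, whereas 84 of 131 did so in the 9myc profile. The direction differed between functions, grouped after the values were known. Intron genes of ubiquitin, RNA and mitochondria had median changes of 0.07, 0.06 and 0.003. Above 0 were 6 of 10, 7 of 13 and 4 of 7 of them, against 54.6% of all genes. All 5 intron genes for translation and ribosome assembly were below 0, with a median change of -0.46. Among them EFB1 and TEF4, subunits of the elongation factor that reloads eEF1A, had 0.53 and 0.56 with 6-azauracil against 1.26 and 1.02 in the control. ASC1, the ribosome-bound RACK1 protein, had 0.32 against 0.79. NOG2, a GTPase of large subunit assembly, had 0.17 against 0.52.

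The snoRNA host genes, whose introns carry small nucleolar RNAs, overlap with these groups, so their count is not separate from the counts above. Of 8 such genes 7 were below 0 (87.5%, against 45.4% of all genes). Their median was 0.24 with 6-azauracil and 0.80 in the control, with a median change of -0.50. The lowest were RPS22B and RPL7A, at -0.99 and -0.95. The exception, IMD4, codes for an IMP dehydrogenase and had 0.51 with the drug and 0.43 in the control, a difference that turned to -0.09 when both columns were scaled to equal spread.

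Most intron genes of the cytoskeleton were above 0. Of 9 genes 7 were above 0, against 54.6% of all genes. Their median was 0.31 with 6-azauracil and 0.13 in the control. The median change was 0.20, which was 0.06 after scaling to equal spread and 0.09 after quantile normalisation. The actin gene ACT1 had 0.81 against 0.48, the alpha-tubulin gene TUB1 0.40 against 0.18 and the profilin gene PFY1 0.31 against 0.15. Cofilin, COF1, was the lowest at -0.11 against 0.11. For membrane traffic 13 of 19 intron genes were below 0 (68.4%, against 45.4% of all genes), with a median change of -0.10. Their extremes were SAR1, the GTPase of COPII vesicles, with 0.10 against 1.18, and DID4, an ESCRT-III subunit, with 0.36 against 0.00. Of 14 meiotic genes with an intron, which growing cells hardly transcribe, 10 were below 0 (71.4%, against 45.4% of all genes). REC102, for meiotic recombination, owed the lowest change of the group, -1.49, to a control value of 1.47, while its 6-azauracil value was -0.02.

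HAC1 had the highest change of any intron gene. It codes for the transcription factor of the unfolded protein response, and its intron is removed by the nuclease Ire1 and tRNA ligase, not by the spliceosome. Prp40 was 1.82 at HAC1 with 6-azauracil, the fifth highest gene of the column, against 0.57 in the control, a change of 1.25. It was the only intron gene with a change of 1 or more, but after scaling to equal spread its change was 0.63, below the 0.91 of RPS19A. Its neighbours had changes of -0.20 at RIM15 and 0.37 at AGX1. YRA1, an mRNA export adaptor, came next in level with 1.70 against 1.21, a change of 0.49 that became -0.10 after scaling to equal spread. A list of unfolded protein response genes, chosen after HAC1 was seen, had a median change of 0.13, with 8 of 12 above 0, against 54.6% of all genes. The chaperone gene KAR2 had 1.09 against 0.36, PDI1 0.79 against 0.33 and ERO1 0.57 against 0.05. DER1, of endoplasmic reticulum degradation, had -0.14 against 0.11. Other intron genes that the naming rule places among the 10 highest changes were SRB2, a Mediator subunit (0.25 against -0.20), HNT1 (0.70 against 0.29), the export factor gene MTR2 (0.37 against 0.02) and the tRNA deaminase gene TAD3 (0.57 against 0.24).

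Outside the intron and RP genes the strongest groups were higher. Glycolytic genes, which have no intron and are among the most transcribed in yeast, had a median of 1.34 with 6-azauracil and 0.79 in the control. The median change was 0.41, with 14 of 16 above 0, against 54.6% of all genes. Of the 16 genes 4 were higher by 0.58 or more, against 4.16% of all genes. This direction depended on the scale: with both columns scaled to equal spread the median change was -0.02, and with quantile normalisation it was 0.82. CDC19, pyruvate kinase, had 1.37 against 0.65, ADH1, alcohol dehydrogenase, 1.59 against 0.91, and TDH1, one of the glyceraldehyde-3-phosphate dehydrogenases, 1.16 against 0.48, and after scaling their changes were 0.26, 0.14 and 0.27 in that order. TDH3, the main enzyme of that step, had 1.82 against 1.32 and turned to -0.13 after scaling. PFK2 and HXK2, at -0.17 and -0.01, were the 2 members below 0. As a rank, the median glycolytic gene stood at percentile 99.7 with 6-azauracil and 98.2 in the control, which is nearly equal.

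Genes of the general stress response were higher in rank as well as in level. All 15 measured genes were above 0, with a median of 0.51 with 6-azauracil and -0.03 in the control, and a median change of 0.48 that was 0.31 after scaling. Their median rank was percentile 94.2 with the drug and 49.1 in the control. Of the 15 genes 5 were higher by 0.58 or more, 33.3% against 4.16% of all genes. GLK1, glucokinase, had 1.08 against 0.19, XBP1, a stress-induced repressor, 0.56 against -0.27, and TSL1, of trehalose synthesis, 0.81 against -0.02. The catalase gene CTT1, at 0.17 against -0.03, was among the least changed. Heat shock genes had a median of 0.62 with 6-azauracil and 0.18 in the control, with 13 of 15 above 0 and a median change of 0.36, or 0.06 after scaling. HSP12, a small membrane-associated heat shock protein, had 1.58 against 0.09, a change of 1.484 and the highest of any listed stress gene. HSP104, the disaggregase, had 0.88 against 0.12 and HSP26, a small chaperone, 0.46 against -0.15. HSP78 and HSP42 were below 0, at -0.22 and -0.14.

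**Figure D4:**
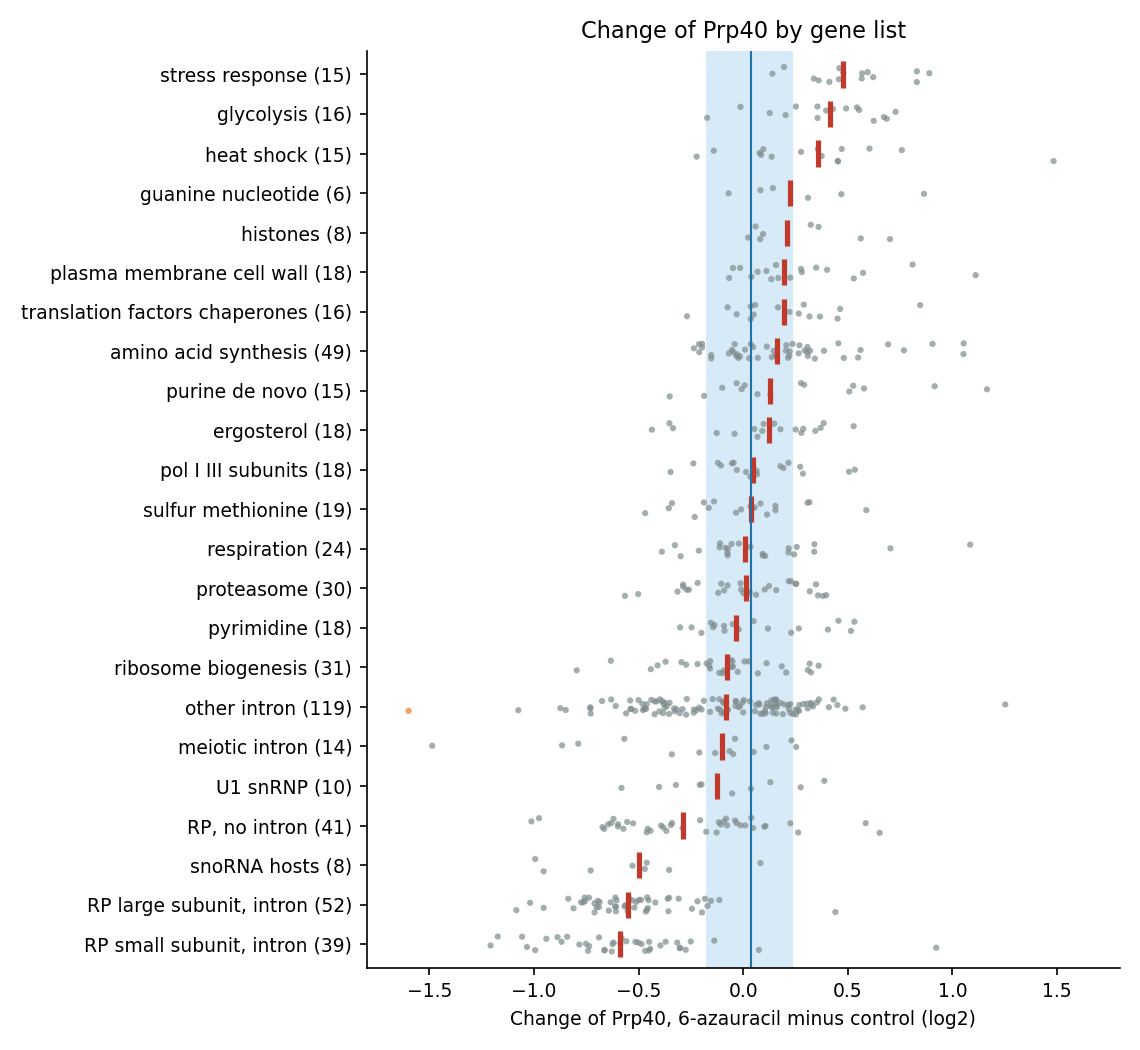
Change of Prp40 (6-azauracil minus control, log2, x axis) of single genes in 23 gene lists (rows, with the number of genes), with red bars at list medians and the median and quartiles of all genes as a blue line and band. RP intron lists lie at the bottom with medians of -0.59 and -0.55 and stress response at the top with 0.48. An orange point stands for 1 gene, RRT8, beyond the left edge.

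Smaller median changes above 0 were found in several other groups. All 8 histone genes were above 0, with a median change of 0.21 and the H3 gene HHT2 at 1.02 against 0.32. Of 16 intronless genes for translation factors and chaperones 13 were above 0, with a median of 0.57 with 6-azauracil and 0.24 in the control. Their median change was 0.19, or 0.04 after scaling. The Hsp70 gene SSA2 led them with 1.56 against 0.71. Genes of the plasma membrane and cell wall had a median change of 0.20 with 15 of 18 above 0, which became -0.01 after scaling. The proton pump gene PMA1 had 1.42 against 0.85 and the wall protein gene CCW12 1.54 against 1.14. Amino acid synthesis genes had a median change of 0.16, with 34 of 49 above 0, against 54.6% of all genes. GDH1, glutamate dehydrogenase, had 1.22 against 0.17, ASN1, asparagine synthetase, 0.98 against 0.21, and GLN1, glutamine synthetase, 1.10 against 0.41.

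Ribosome biogenesis genes, which code for assembly factors and have no intron, were slightly lower than the background. Their median was -0.03 with 6-azauracil and 0.08 in the control, with 21 of 31 below 0 (67.7%, against 45.4%). The median change was -0.08, against 0.04 for all genes. RLP7 had -0.62 against 0.18, and NOP56, a box C/D snoRNP protein, -0.49 against 0.15. Its partner NOP58 had 0.11 against 0.55, whereas NHP2, of the box H/ACA snoRNPs, had 0.18 against -0.18. Proteasome and respiration genes, with median changes of 0.01 each, were split nearly evenly, with 16 of 30 and 12 of 24 above 0.

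6-Azauracil acts on nucleotide pools, so the genes of their synthesis were listed. IMD2 and IMD3 code for IMP dehydrogenase, the enzyme that makes the guanine nucleotide precursor, and IMD2 is known to be induced by the drug. Prp40 was 0.82 at IMD2 with 6-azauracil against 0.36 in the control, and 1.22 at IMD3 against 0.36, a change of 0.86. The 2 genes are near-identical, and their probes may detect both. The neighbours of IMD3 had changes of 0.21 at ATG23 and 0.03 at CNA1. GUA1, GMP synthase, had 0.10 against -0.04. In the pyrimidine list 8 of 18 genes were above 0 with a median change of -0.04. URA1 had 0.34 against -0.11 and URA3 0.44 against -0.07, whereas URA4 and URA10, which the activator Ppr1 also controls, had changes of -0.02 and -0.14. SDT1, a nucleotidase known for its induction by 6-azauracil, had -0.70 against -0.39. FUR4, the uracil permease, had -0.21 against -0.01, and FUR1, which converts uracil to its nucleotide, -0.17 against 0.08. In purine synthesis ADE17, a bifunctional enzyme of the last steps to IMP, had 0.67 against -0.49, and ADE57 had 0.95 against 0.04. The purine list as a whole had a median change of 0.13, with 10 of 15 above 0, against 54.6% of all genes. PDR5, a drug efflux pump, had 0.00 against 0.70, the lowest change of 12 listed drug efflux genes. The median change of that list was -0.02, with 5 of 12 above 0, against 54.6% of all genes.

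The genes of the splicing and elongation machinery changed little as groups. For the 10 genes of U1 snRNP proteins the median change was -0.13, with 6 below 0. PRP40 itself had -0.04 with 6-azauracil and 0.36 in the control, SNP1, the U1 70K homologue, had -0.33 against 0.25, and LUC7 had 0.04 against -0.35. For 20 genes of RNA polymerase II subunits and elongation factors the median change was 0.07, with 12 above 0, against 54.6% of all genes. SPT4 and SPT5, which form one complex, had 0.40 against -0.32 and 0.35 against 0.01. SPT16 of the FACT complex had 0.00 against 0.46, PAF1 -0.37 against 0.00, and DST1, which codes for TFIIS and whose loss makes cells sensitive to 6-azauracil, 0.11 against -0.01. RPB5 and RPB10, subunits shared by the 3 nuclear RNA polymerases, were not among the 20 listed genes. They were among the lowest intronless genes, with -0.60 against 0.39 and -0.97 against 0.19.

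The change was also set against transcription level. Genes were put into 10 equal bins by the RNA polymerase II column, which comes from cells without the drug and in rich medium, so polymerase under 6-azauracil was not analysed here. In the highest bin the median change was -0.61 for 48 RP genes with an intron, -0.34 for 37 RP genes without one, -0.02 for 20 other intron genes and 0.18 for 452 other genes. In levels, the 48 genes had 0.00 with 6-azauracil and 0.56 in the control, and the 452 genes had 0.31 and 0.14. With the sign of the 6-azauracil column turned, the median changes in this bin would be -0.53, -0.80, -0.93 and -0.44 in the same order of classes, so the RP intron genes would not be the lowest. In the bin below, 32 of 32 RP intron genes were below 0 with a median of -0.56, while 513 other intronless genes had 0.10. Bins 2 to 5 of intronless genes lay between -0.03 and 0.01, whereas the lowest bin had 0.07 and bins 7 and 8 had 0.08 and 0.06. Spearman coefficients of the change with polymerase are a description over genes that share arrays and neighbours. They were 0.13 for 5350 intronless genes, 0.11 for 133 other intron genes and -0.31 for 91 RP intron genes. Over all genes the coefficient was 0.08, but -0.02 with both columns scaled to equal spread. The coefficients by class and the bin medians are given without scaling. Set against Spt5, an elongation factor that travels with polymerase, the coefficient was -0.39 for the RP intron genes and -0.04 for the intronless genes.

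**Figure D5:**
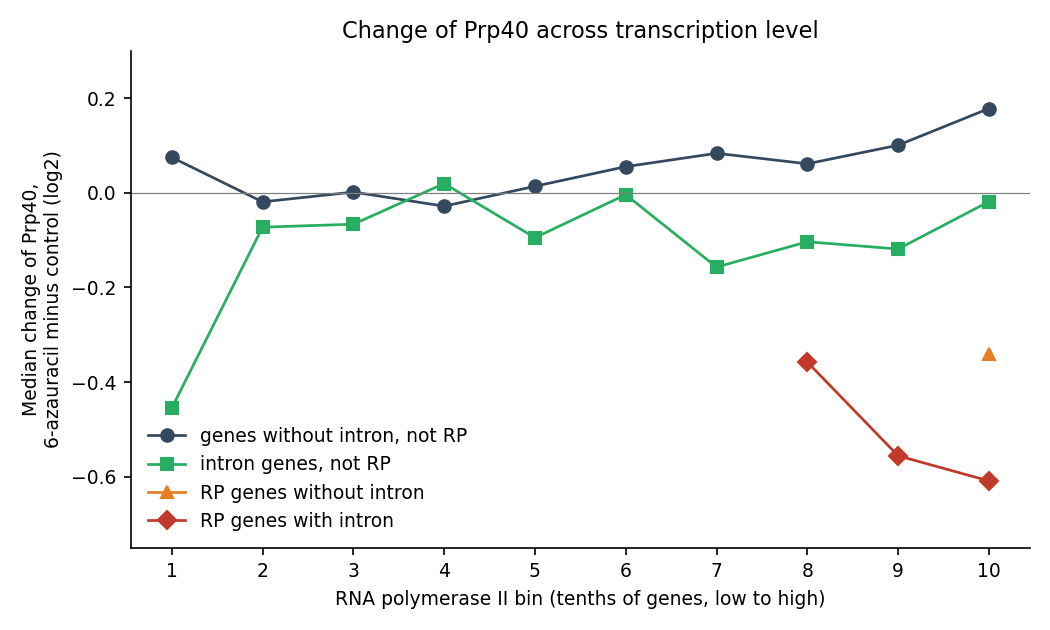
Median change of Prp40 (6-azauracil minus control, log2, y axis) in 10 bins of RNA polymerase II level (x axis, low to high) for 4 gene classes, where a class has at least 5 genes in the bin. In the highest bin RP intron genes lie at -0.61 and other intronless genes at 0.18, without scaling of the columns to equal spread.

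The change varied little with gene span. The Spearman coefficient of the change with span was -0.04 over all genes and -0.07 over the RP intron genes. Intronless genes of the shortest of 5 equal bins had a median change of 0.09 and those of the longest 0.02. RP intron genes had -0.57 in the shortest bin, with 15 genes, and -0.59 in the next, with 64. Neighbouring genes resembled each other weakly, with a Spearman coefficient of 0.17 between the changes over 5656 adjacent pairs, 0.18 for divergent, 0.17 for tandem and 0.14 for convergent pairs. The 166 genes that lie next to an RP intron gene and are not RP genes themselves had a median change of 0.01, close to that of all genes.

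By definition a large change needs a value far from 0 in at least one of the 2 columns, so both values are given for the largest. SPT6, an elongation factor gene, was the highest gene with 6-azauracil at 4.07, against -1.89 in the control, -4.09 in spt5_194 and 0.70 in the 9myc profile. Its neighbours DAM1 and YGR117C changed by -0.13 and 0.03. DBF2, a mitotic exit kinase gene, had 2.81 against -0.95, FCF1, for ribosomal RNA processing, 3.21 against -0.91, and YPS7 3.67 against 2.85. In spt5_194 these 3 genes lay at -4.58 or lower. The 4 lowest changes were at the 4 highest genes of the control. EST3, a telomerase subunit gene, had -0.41 against 5.00, a change of -5.41, and YRF1-8, of a subtelomeric family of near-identical copies, had 0.35 against 5.10. MRPL15, for a mitochondrial ribosomal protein, had -0.79 against 3.83, and YHL009W-A had -0.24 against 3.98. These 4 genes have no value in the 9myc profile. GAL4, the activator of galactose genes, had 0.52 against -1.65, and YPL247C next to it 0.71 against -1.32. Elsewhere at the low end PAL1, next to YPS7, had -1.93 against 0.83, and IPI3, of large subunit assembly, had -0.53 against 2.30. TOP2, for topoisomerase II, had -0.48 against 3.37, while its neighbour RHO2 had -0.17 against -1.72, so that adjacent genes gave changes of -3.85 and 1.54. Control values further than 1.5 from the 9myc profile were flagged as extreme in 90 genes. Of these 57 were RP intron genes, a group whose median was 2.14 in the 9myc profile and 0.50 in the control, and without them the median change of the remaining RP intron genes was -0.54. By size alone, 34 genes had a control value over 1.5 in either direction, and none was an RP intron gene. The naming rule left the flagged genes out of its rankings, which removed RPS13 and RPS27B but kept RPL39, RPS7A, RPS14B and RPL28.

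If the sign of the 6-azauracil column is turned, the RP intron genes stay lower, since their levels were close to 0: the median change becomes -0.43, and 1 of 91 passes the 95th percentile of intronless genes. RP genes without an intron would then have -0.78. The groups that were higher would be lower, with -2.14 for glycolysis, -0.84 for heat shock and -0.42 for stress response, and HAC1 would stand at -2.38. The 6-azauracil column had a Spearman coefficient of 0.33 with its control and 0.27 with RNA polymerase II over all genes. Of the other 23 columns it was nearest to Brr2, a helicase of the U5 snRNP, with 0.51, or with its sign turned to Mud2, with 0.41, and the control was nearest to spt5_194, with 0.45. These coefficients describe columns from 1 array design, whose probes and print they share.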

How the data were processed

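Per the labels, DNA of the immunoprecipitate and of the extract was amplified by PCR and labelled with Cy5 and Cy3, dyes were reversed in at least 1 replicate, and the authors merged the replicates in Rosetta Resolver. The deposited values are log2 ratios per probe, and neither the way of merging nor any normalisation is stated. Of 6284 probes, 5707 matched the RefSeq gene table of R64 by locus, and 5674 nuclear genes were kept, with 610 probes not used. Values at the limit of the scale, a 100-fold ratio, were left out. Each change is a difference of log2 values, computed with Python 3.11.15, pandas 2.3.3 and scipy 1.17.1, with steps tested on simulated data. Arrays carry no read depth, and their number limits the precision.

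Gene lists and intron classes were written from general knowledge, and the lists and the comparison were chosen with earlier results of these data known. Of 224 intron genes, 137 have a span that is not a multiple of 3, and other genes with such a span were placed in neither class (57 genes with some unclear annotations included). The naming rule took 10 intron and 8 intronless genes at either end of the change. For higher changes their 6-azauracil value, and for lower changes their control value, had to pass its 75th percentile. Extreme control values and 37 genes lacking a Prp40-9myc value were left out. Members of the lists, neighbours, the 5 highest genes of each column and the 5 largest changes removed as extreme could also be named. Alternatives were centring, scaling, quantile normalisation, a turned sign, limit values kept, extreme control values left out, the Prp40-9myc profile as comparator, means, another fold, and Spt5 for polymerase.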

Additional observations from a re-analysis of the deposited data

How the results depend on the processing

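No paired analysis was possible because the replicates of each group were combined into 1 column, and no replicate could be left out for the same reason. Medians of lists are compared with a tolerance of 1 robust SD of the change, counts with 1.5-fold, and rank correlations with 0.1. None of these moved under centring, with limit values kept or, for the medians, with means. Scaled to equal spread, glycolysis had -0.022 and 32 genes in place of 49 were 2-fold higher. After quantile normalisation glycolysis had 0.82. Of 149 single genes named or taken by the rule, 6 changed sign under scaling and 1 under quantile normalisation.

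With the sign of 6-azauracil turned, the median changes were -0.78 for RP genes without an intron, -0.92 for snoRNA hosts, -1.11 for intron genes of translation, -0.45 for those of the cytoskeleton, 0.25 for meiotic genes and 0.24 for U1 snRNP genes. They were -2.14 for glycolysis, -0.84 for heat shock, -0.42 for stress response, -0.87 for translation factors and chaperones, -0.74 for histones, -0.50 for guanine nucleotides, -0.18 for purines, -0.18 for amino acids and -0.96 for membrane and wall. The counts were 98 genes 2-fold higher and 212 lower in place of 49 and 39. Above the 95th percentile stood 1 RP intron gene, 0 RP genes without an intron and 18 other intron genes. The correlation of the change with polymerase was -0.32 in place of 0.08, and that of both columns over intron genes -0.36 in place of 0.36. Of the 149 single genes 79 changed sign, and those among them with a change of 2-fold or more were SPT6 (-2.19), FCF1 (-2.31), DBF2 (-1.86), HAC1 (-2.38), HSP12 (-1.67), GDH1 (-1.38), YMR103C (-0.43), ADE17 (-0.18), HUL5 (-0.021), PAL1 (1.10) and RPB10 (0.78).

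Against the Prp40-9myc profile, which differs in tag and medium, the medians were -2.23 for RP intron genes, with -2.20 for the large and -2.28 for the small subunit, -1.42 for snoRNA hosts, -0.32 for guanine nucleotides, and -0.73 for other intron genes. Within the last group they were -0.80 without meiotic genes, -1.28 for translation, -1.02 for traffic, -1.06 for ubiquitin, -0.73 for RNA, -0.68 for cytoskeleton and -0.44 for mitochondria. The counts were 27 higher and 189 lower, and the correlations -0.14 with polymerase and 0.19 between the columns over intron genes. Of 144 single genes with a value there 29 changed sign, and those among them with a change of 2-fold or more were ELP6 (0.32), THI6 (0.11), YOR012W (0.54), RHO2 (-0.31) and TEL1 (-0.91).

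Without the extreme control values and the 37 genes lacking a Prp40-9myc value, 14 genes were 2-fold lower. The columns then correlated at 0.46 over intron genes, with 57 of 91 RP intron genes left out. Leaving out only control sizes over 1.5 gave 19 genes 2-fold lower. This alternative, the other percentile below and the turned sign for counts above the percentile, polymerase bins, and ranks and likeness of columns were chosen after seeing the data. At 1.5-fold 236 genes were higher and 234 lower. At the 90th percentile 1 RP intron gene, 13 RP genes without an intron and 14 other intron genes passed with 6-azauracil. With Spt5 for polymerase the correlation was -0.090. The cause of these differences was not tested.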
